A study of Mus musculus with 10 samples.

Results

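The cells described here were the microglia of brain slices kept in culture for 3 weeks in which the immediate early genes *Fos*, *Jun*, *Dusp1*, *Ier2* and *Egr1* took the largest share of the messenger RNA counted. They were chosen by those 5 markers alone. In each of the 2 slice 3 weeks libraries, cells with at most 5% of mitochondrial UMIs (unique molecular identifiers, each standing for 1 captured RNA molecule), at least 400 genes and at most 30000 UMIs were ranked by the percent of their UMIs in the 5 markers, and the top 20% were taken. This gave 979 cells, 231 of 1153 in replicate 1 and 748 of 3740 in replicate 2, out of 19059 cells kept in the whole series. They were set against the bottom 40% of the same library by the same share, further limited to cells with at least 1% of their UMIs in *Malat1*, a nuclear RNA. More than 40% of each library had no marker UMI at all, 497 cells (43.1%) and 2092 cells (55.9%), so the bottom held all of these tied cells. After the *Malat1* limit it left 251 and 1253 cells, 1504 in all. The 2 classes are called high and low below, and the cells between them with at least 1% *Malat1* (257 and 586) are called middle.

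Microglia, the resident macrophages of the brain, were sorted as living CD11b-high, CD45-intermediate cells and profiled with 10x Genomics 3′ single cell libraries, 2 per group. All mice were C57BL/6. Human PDGF, a growth factor, was added with every change of slice medium, and whether the 1 day slices had such a change is not given in the sources used here. The methods name no added factor for the mixed glial cultures beyond serum and medium supplements. The slices were coronal brain slices of pups of postnatal days 1 to 4, without cerebellum, pooled as needed and grown on membrane inserts for 1 day, 1 week or 3 weeks. The *in vitro* microglia came from mixed glial cultures of cortices of postnatal day 2 pups, collected after 3 weeks of culture, and the adult microglia were isolated directly from mice of 10 to 15 weeks. Sorting by surface protein was meant to keep microglia only, so the data do not describe the tissue around them. The study describes the samples of each group as independent, but the labels do not say whether they came from separate animals or pools. A p-value here measures the spread of the high-minus-low difference between the 2 libraries of a group, pooled over the groups tested. That spread may be technical. Slice 3 weeks replicate 1 and adult replicate 1 carry a different study number in the labels from the other 8 libraries, and this split cannot be told apart from replicate 1 against replicate 2 of the slice 3 weeks group.

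The slice 3 weeks libraries held 7819156 and 22332658 UMIs, with medians of 6112 and 5266 per cell, and shared 4 cell barcodes. The high and low classes were of like depth, with medians of 5423 and 5575 UMIs per cell in replicate 1 and 4762.5 and 4829 in replicate 2. Median genes per cell were 2038 and 2011, then 1808.5 and 1795. The mitochondrial share was slightly lower in high cells, at 1.41% against 1.64% in replicate 1 and 1.15% against 1.31% in replicate 2. Because the *Malat1* limit was asked of the low class only, 14.3% (95% exact binomial interval 10.0 to 19.5%) and 19.8% (17.0 to 22.8%) of high cells lay under it, while no low cell did. Intervals cover counting error only. With the limit asked of both classes, 70 of the 100 genes called higher below were called again.

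Immediate early genes are switched on within minutes of a stimulus without new protein synthesis, through transcription factors such as SRF and CREB that already sit in the cell and are activated by MAP kinases. Many encode transcription factors: Fos and Jun family proteins pair into the AP-1 complex, and Egr1 is a zinc finger factor. Others end the response, such as Dusp1, a phosphatase that removes the activating phosphates from p38 and JNK, and in microglia and other macrophages the same wave goes with NF-κB targets and chemokines. Dissociation of tissue can itself induce these genes, and in this study cells were isolated from brain and slices on ice apart from the Percoll density spin, which ran at room temperature. Whether the transcripts arose in the slice or during isolation was not tested.

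The promoters of a few of these genes are shown for the DNA elements through which such genes are read. Sequences are the 250 bases before the annotated start, from RefSeq on mouse build GRCm38.p6, in the direction of the gene, and capitals mark TGACGT, the core of the cAMP response element bound by CREB and ATF proteins, on either strand. *Fos* (chr12:85473640-85473889, plus strand) and *Dusp1* (chr17:26508473-26508722, minus strand) are shown as markers that hold it, *Jun* (chr4:95052223-95052472, minus strand) as the marker that gave the most UMIs, and *Junb* (chr8:84978749-84978998, minus strand) and *Atf3* (chr1:191183334-191183583, minus strand) as the AP-1 members with the clearest difference outside the markers.
Fos: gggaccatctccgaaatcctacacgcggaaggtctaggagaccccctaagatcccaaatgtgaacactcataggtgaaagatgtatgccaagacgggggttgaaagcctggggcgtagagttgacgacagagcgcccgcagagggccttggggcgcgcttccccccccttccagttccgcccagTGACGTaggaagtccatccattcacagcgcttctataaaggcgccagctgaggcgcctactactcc
Jun: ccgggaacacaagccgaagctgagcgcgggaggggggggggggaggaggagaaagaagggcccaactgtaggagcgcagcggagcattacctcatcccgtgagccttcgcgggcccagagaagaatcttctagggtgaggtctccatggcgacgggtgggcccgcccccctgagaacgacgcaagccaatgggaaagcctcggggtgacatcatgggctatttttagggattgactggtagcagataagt
Dusp1: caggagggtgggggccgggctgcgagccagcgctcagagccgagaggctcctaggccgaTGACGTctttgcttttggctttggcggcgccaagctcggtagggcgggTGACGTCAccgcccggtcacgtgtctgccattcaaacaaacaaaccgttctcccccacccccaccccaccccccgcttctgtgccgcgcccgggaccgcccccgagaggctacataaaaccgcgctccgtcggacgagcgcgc
Junb: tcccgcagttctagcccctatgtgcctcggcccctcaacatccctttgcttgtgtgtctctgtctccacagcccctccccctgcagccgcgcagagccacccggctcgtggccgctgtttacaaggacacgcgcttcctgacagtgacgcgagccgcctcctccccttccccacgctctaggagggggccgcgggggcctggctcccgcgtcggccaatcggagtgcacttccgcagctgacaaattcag
Atf3: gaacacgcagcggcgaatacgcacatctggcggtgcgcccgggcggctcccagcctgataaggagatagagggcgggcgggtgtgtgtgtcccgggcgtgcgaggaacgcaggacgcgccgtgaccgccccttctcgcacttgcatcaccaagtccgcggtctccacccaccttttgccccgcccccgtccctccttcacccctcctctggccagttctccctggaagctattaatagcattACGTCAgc
In these windows TGACGT lay 66 bases before the start of *Fos*, at 191, 143 and 141 bases before that of *Dusp1*, where the last pair is 1 palindrome read on both strands, and 8 bases before that of *Atf3*. It was in none of the letters shown for *Jun* and *Junb*. Windows were at hand for 17 of the 21 genes looked up, which were the 5 markers and the 16 other early genes called higher below. The markers *Ier2* and *Egr1*, and *Klf10* and *Myc*, had no window. TGACGT occurred in 5 of the 17, the CArG box of SRF in 1 (*Zfp36*, 58 bases before the start) and TGACTCA, the AP-1 site, in 0. Over all 32851 promoter windows of the same length, TGACGT occurred in 6.47%, the CArG box in 1.47% and TGACTCA in 4.46%. A match describes the letters only, and says nothing of what bound there. Elements further than 250 bases before a start lie outside these windows, so a missing match does not show that a gene lacks the element.

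The markers themselves were carried mainly by *Jun* and *Ier2*. These levels chose the cells, so they are given as a description. Of the marker UMIs in high cells, *Jun* gave 43.7% in replicate 1 and 47.0% in replicate 2, and *Ier2*, a small nuclear protein, gave 33.6% and 24.7%. *Jun* stood at 346 CPM (UMIs of the gene scaled to the UMI total of the class in the usual way) in high cells against 42.3 in all other cells of replicate 1, and at 297 against 30.0 in replicate 2. *Ier2* was at 266 against 42.0, then 156 against 21.7. *Egr1* was at 82.8 against 7.28 and 76.2 against 5.24. *Fos* was at 57.9 against 5.58 and 71.9 against 3.33, and *Dusp1* at 38.8 against 4.96 and 31.0 against 1.25. The order of these levels, counted at the 3′ end and so without a length term, was the same in both libraries.

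Few cells carried the whole set. At least 1 *Jun* UMI was found in 78.4% and 69.8% of high cells, *Ier2* in 66.7% and 49.5%, *Egr1* in 24.2% and 21.9%, *Fos* in 19.0% and 18.05%, and *Dusp1* in 13.4% and 10.4%. In replicate 1, 28.1% of high cells had a single marker detected and 47.6% had 2, and 1 cell had all 5. In replicate 2 these were 45.7%, 41.2% and 3 cells. *Jun* was the only marker in 43 and 213 cells. The median high cell held 4 and 2.5 marker UMIs, and the largest count in a cell was 25 and 53. In replicate 2, 147 of the 748 cells entered with 1 marker UMI, against 10 of 231 in replicate 1, so the class held weakly supported cells, more of them in replicate 2.

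**Figure D1:**
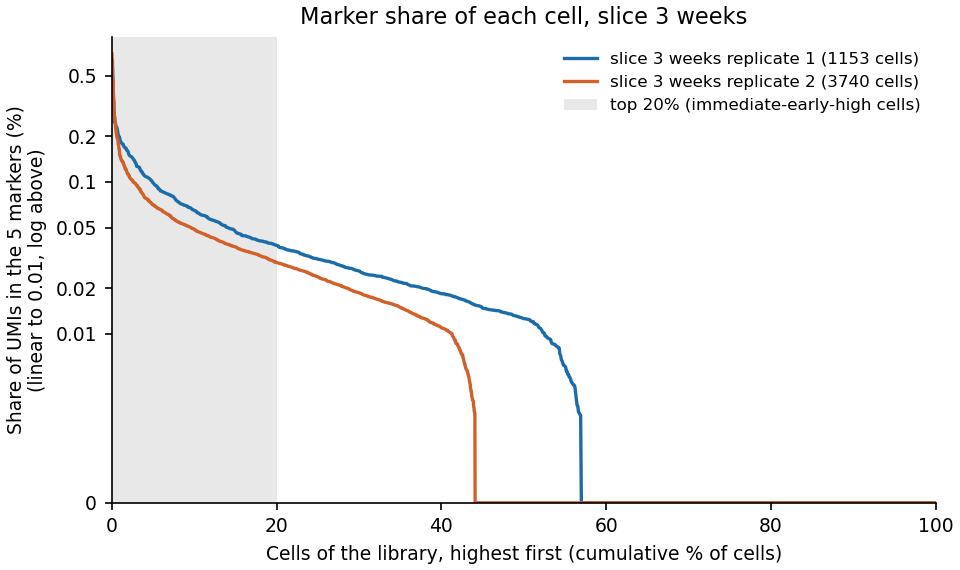
Percent of each cell's UMIs in the 5 markers (vertical axis, linear up to 0.01% and logarithmic above) against the cells ranked from highest to lowest (horizontal axis, cumulative percent of the library's cells), with 1 line for each slice 3 weeks library and the top 20% shaded. Neither line has a step at the limit, and 43.1% and 55.9% of cells sit at 0.

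There was no gap in marker share at the limit. The last cell taken had 0.0381% of its UMIs in the markers in replicate 1 and the first cell left out 0.0380%, and in replicate 2 both stood at 0.0294%. The highest cells reached 0.627% and 0.694%. Summed over the class the share was 0.0791% and 0.0632%, or 0.0712% ± 0.0112 (SD, n = 2), against 0.0222% and 0.0164% of all UMIs in the 2 libraries. With medians of 4 and 2.5 marker UMIs per high cell, counting error alone spreads the share, so the absence of a gap does not show whether a separate group of cells exists.

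To see whether the markers went together, cells were chosen again with 4 markers and the fifth was read in them. *Fos* was at 43.8 CPM in cells ranked high by the other 4 against 3.93 in those ranked low in replicate 1, and at 41.5 against 7.28 in replicate 2. *Egr1* was at 69.3 against 7.65 and at 39.9 against 11.1, and *Dusp1* at 25.8 against 7.05 and at 22.5 against 2.51. *Ier2* was at 144 against 67.3 and at 92.6 against 36.8, and *Jun* at 185 against 101 and at 136 against 80.4. Each marker was thus higher in both libraries in cells it had no part in choosing. The ratio was smallest for *Jun*, 1.83 and 1.70, and larger for *Fos*, 11.2 and 5.69. The median over the 5 markers was a log2 difference of 1.87 in replicate 1, which was that of *Dusp1*, and 1.84 in replicate 2, which was that of *Egr1*. Single markers were further apart, since *Dusp1* was at 3.16 in replicate 2 and *Egr1* at 3.18 in replicate 1. With cells thinned to 1800 UMIs before they were ranked, the medians were 1.02 and 0.754.

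The question was which other genes differed in these cells. Outside the markers, some of the early genes listed were called higher, among them *Junb*, *Atf3*, *Klf2*, *Klf6*, *Id2*, *Ier3* and *Gadd45b*. Of 50 further early genes listed, 45 had enough counts to be tested, while 16 of these were called higher, 0 lower and 29 not called, at an adjusted p under 0.05 and a change over 1.5-fold by edgeR's quasi-likelihood test on UMIs summed per library and class. Over all 11035 genes tested, 0.906% were called higher and 0.0453% lower. The median log2 difference of the 45 was 0.79, beside −0.01 over all genes tested, and 36 of the 45 were positive in both libraries, as 2871 of all 11035 were. The 5 not tested, *Fosb*, *Egr3*, *Nr4a2*, *Nr4a3* and *Dusp4*, had too few counts, and a gene can pass that filter through its high cells alone. Without slice 3 weeks replicate 2, 6 early genes were called higher, and without either one of the slice 1 day libraries, which enter the shared estimate of the spread, 23 were. With cells thinned to 1800 UMIs each before they were ranked, 6 were called.

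Among the subunits of AP-1, *Junb*, which partners Fos proteins, was at 735 CPM in high, 386 in middle and 291 in low cells of replicate 1, and at 485, 283 and 257 in replicate 2. The log2 difference was 1.00 ± 0.12 (SE, adjusted p = 0.000198 by edgeR). *Jund* was at 218, 152 and 97.3, then 338, 252 and 200.1, a difference of 0.79 ± 0.14 (adjusted p = 0.00889). *Atf3*, a stress-induced member that often represses, was at 183, 97.5 and 92.6, then 230.0, 141 and 104, a difference of 0.99 ± 0.14 (adjusted p = 0.000997). In all 3 genes the high cells lay above both other classes in both libraries. The other 6 members tested did not pass. *Batf*, a partner of Jun proteins in lymphoid and myeloid cells, was at 5.13 against 8.72 and 6.24 against 9.71 CPM (−0.76 ± 0.28), and *Maff* at 20.5 against 2.68 and 20.5 against 12.1.

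Of the other early transcription factors, 6 of 15 tested passed, all higher, beside 0.906% of all 11035 genes tested. The median of the 15 was 0.69. *Klf2*, a zinc finger factor that restrains inflammatory genes in macrophages, was at 150 against 47.6 CPM in replicate 1 and 95.4 against 46.2 in replicate 2 (log2 difference 1.15 ± 0.14, adjusted p = 0.00037 by edgeR). *Klf6* was at 225 against 105 and 239 against 119 (0.93 ± 0.12), *Klf4* at 44.7 against 21.5 and 89.7 against 54.5 (0.69 ± 0.13) and *Klf10* at 88.7 against 62.4 and 80.7 against 43.8 (0.66 ± 0.12). All 4 Krüppel-like factors in the list thus passed. *Id2*, an inhibitor of basic helix-loop-helix factors, was at 256 against 119 and 270 against 138 (0.91 ± 0.10), and *Myc* at 60.8 against 31.5 and 44.0 against 23.8 (0.81 ± 0.15). *Ier5* passed on p but not on size, at 281 against 157 and 188 against 131 CPM (0.55 ± 0.11, adjusted p = 0.0165 by edgeR). *Nr4a1*, an orphan nuclear receptor, had at most 2.25 CPM in any class, and *Srf* itself at most 8.05, and neither was called.

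Of the 21 genes tested that end or buffer the early response, 7 were called higher and 14 were not called, with a median of 0.76. Beside them, 0.906% of all 11035 genes tested were called higher. *Ier3*, which modulates survival and ERK signalling, was at 200.02 CPM in high, 74.3 in middle and 53.7 in low cells of replicate 1, and at 177, 96.6 and 74.3 in replicate 2 (1.35 ± 0.15, adjusted p = 0.000105 by edgeR). *Zfp36* (tristetraprolin), which binds and destabilizes cytokine messenger RNA, was at 109 against 38.9 and 54.9 against 31.8 (0.91 ± 0.14). *Nfkbia*, the inhibitor of NF-κB that NF-κB itself induces, was at 289 against 140 and 241 against 153 (0.70 ± 0.12). The anti-proliferative gene *Btg2* was at 144 against 44.9 and 98.9 against 48.4 (1.14 ± 0.22). *Ppp1r15a*, which brings a phosphatase to eIF2α, was at 83.5 against 26.2 and 90.7 against 42.6 (1.14 ± 0.17), and *Pim1*, a kinase, at 28.6 against 12.7 and 22.7 against 8.07 (1.29 ± 0.23). *Gadd45b* was at 40.3 against 4.70 and 58.9 against 21.8 (1.56 ± 0.21), but 21.8% and 19.9% of its high-class UMIs came from 1 cell. Other feedback genes were nearly level, such as *Dusp6*, the ERK phosphatase, at 256 against 209 and 156 against 175 CPM, and *Socs3* at 54.2 against 40.9 and 32.5 against 37.95.

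**Figure D2:**
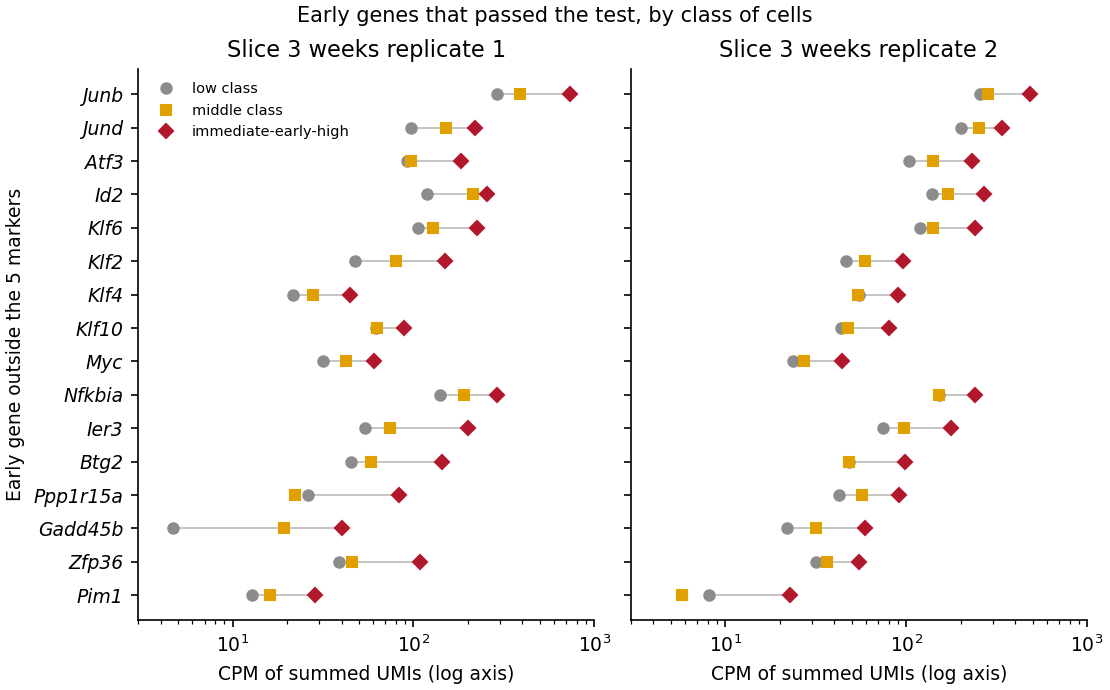
Level in CPM (log axis) of the 16 early genes that passed the test, with replicate 1 in the left panel and replicate 2 in the right, grey circles for low, yellow squares for middle and red diamonds for high cells. The high class lies above the middle and low classes for each gene in both libraries, while middle and low cells change places for some, such as *Pim1* in replicate 2.

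No gene of the signalling chain upstream passed the test. Of 23 kinases and factors of the MAP kinase and SRF route, 0 were called by edgeR and 0 by DESeq2, with a median of −0.10. At an unadjusted p under 0.05 there were 4 of the 23, beside 1426 of all 11035 genes tested, and 7 of the 23 were positive, beside 5224 of the 11035. Their summed level was 1064 CPM in high against 1040 in low cells in replicate 1 and 930.1 against 976 in replicate 2. These proteins act through phosphorylation, which transcript counts do not measure.

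The calls in the cytokine and NF-κB list were *Tnf* and the chemokines *Ccl2*, *Ccl3*, *Ccl4*, *Ccl7*, *Ccl12* and *Cxcl10*. Of 25 genes listed, 23 were tested, with 7 called higher, 0 lower and 16 not called. Over all 11035 genes tested, 0.906% were called higher and 0.0453% lower. The median of the 23 was 0.53, and 11 were at an unadjusted p under 0.05 by edgeR, as 1426 of the 11035 were. The summed level of the list was 5154 CPM in high against 2163 in low cells of replicate 1 and 4804 against 2155 in replicate 2. *Ccl4* (MIP-1β), an inflammatory chemokine, was at 1521, 1042 and 303 CPM in high, middle and low cells of replicate 1 and at 1322, 707 and 322 in replicate 2 (log2 difference 2.06 ± 0.28, adjusted p = 0.000953 by edgeR). *Ccl3* (MIP-1α), a chemokine of the same family, was at 1115, 800 and 422, then 1187, 777 and 405 (1.38 ± 0.09, adjusted p = 4.14e-07). Both stood highest in high, next in middle and lowest in low cells. *Ccl2*, the monocyte attractant that binds CCR2, was at 309, 139 and 62.4, then 114, 31.8 and 28.7 (2.02 ± 0.13, adjusted p = 2.65e-07). It was found in 74 and 85 high cells, of which 1 gave 16.8% and 19.96% of its UMIs. *Ccl12*, another CCR2 ligand, was at 1103, 746 and 574, then 1223, 583 and 645 (0.82 ± 0.09).

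*Tnf* was at 106 against 22.1 CPM in replicate 1 and 28.2 against 11.5 in replicate 2 (1.59 ± 0.23, adjusted p = 0.00159 by edgeR), with 22.8% of its UMIs in replicate 1 from 1 cell. *Ccl7* and *Cxcl10* passed the test on a handful of cells. For *Ccl7*, 1 cell gave 55.6% and 45.0% of the high-class UMIs (19.8 against 0.671 CPM and 4.995 against 1.20), and for *Cxcl10* 33.3% and 75.1% (17.6 against 11.4 and 107 against 2.39). *Il1b* was at 17.6 against 0.671 and 17.7 against 2.24 CPM but did not pass (adjusted p = 0.093 by edgeR), and *Il1a* was at 44.7 against 6.71 and 33.5 against 18.8 (adjusted p = 0.169). Not every member of the list was raised, since *Cd83* was at 283 against 252 and 189 against 207, and *Nfkb1* at 45.4 against 57.7 and 42.2 against 49.2. Without slice 3 weeks replicate 2, 3 of the list were called, and without either slice 1 day library 10.

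For some of these genes, the share of cells with at least 1 UMI was also read. With every cell thinned to 1800 UMIs (2 high and 2 low cells of replicate 1 and 9 and 18 of replicate 2 were shallower and left out), *Junb* was found in 62.4% of high against 39.4% of low cells in replicate 1 and 47.5% against 33.0% in replicate 2. Unthinned, it was 79.2% against 70.1% and 68.4% against 57.1%. *Ier3* was found in 21.0% against 5.62% and 20.8% against 9.15% of thinned cells, and in 41.1% against 17.5% and 35.8% against 19.4% unthinned. *Ccl4* was found in 35.8% against 21.3% and 34.6% against 16.9% thinned, and 55.4% against 43.0% and 48.5% against 29.7% unthinned. *Ccl4* and *Junb* were hence detected in many low cells too, and for them the classes differed in the share and in the level. The share moved less for *Ccl12*, at 45.4% against 38.6% and 38.4% against 34.3% thinned (66.2% against 59.4% and 53.3% against 49.9% unthinned). *Cxcl10* was found in 2.62% against 2.41% and 1.22% against 0.243% thinned. Unthinned, *Cxcl10* was lower in high cells of replicate 1, at 3.90% against 4.38%, and at 1.47% against 0.798% in replicate 2. The slice 3 weeks libraries held no cell type without these genes from which a share given by free RNA could be read, and its part was not tested.

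Among called genes that had the same direction in both libraries and averaged 5 or more on the log2 CPM scale, the 10 largest rises were those of *Plk2*, *Ccl4*, *Ccl2*, *Rgs1*, *Lilr4b*, *Ccl3*, *Hilpda*, *Ier3*, *Ifrd1* and *Cdkn1a*. *Plk2*, a polo-like kinase induced early after a stimulus, was at 35.9 against 3.35 CPM in replicate 1 and 67.9 against 8.67 in replicate 2 (2.93 ± 0.27, adjusted p = 2.13e-05 by edgeR). It was found in only 14 and 73 high cells, and 1 cell gave 34.7% of its UMIs in replicate 1. *Cdkn1a* (p21), the inhibitor of cyclin-dependent kinases, was widespread, at 425 against 158 and 683 against 307 CPM (1.16 ± 0.14, adjusted p = 0.000215), and was found in 33.6% against 19.7% and 44.2% against 25.3% of thinned cells (49.4% against 38.2% and 63.1% against 43.0% unthinned). *Rgs1*, which shortens signalling of G protein-coupled receptors, was at 89.4 against 18.8 and 68.7 against 23.2 (1.63 ± 0.14), with 36.1% of the UMIs of replicate 1 from 1 cell. *Lilr4b*, an immunoglobulin-like receptor, was at 80.6 against 36.9 and 159 against 49.9 (1.44 ± 0.15). In replicate 1, 1 cell gave 39.1% of its high-class UMIs, and the middle cells stood higher, at 105. *Hilpda*, a lipid droplet protein, was at 79.9 against 42.3 and 349 against 116 (1.36 ± 0.15), and *Ifrd1*, a regulator induced by growth factors and stress, at 68.1 against 28.8 and 86.9 against 32.7 (1.28 ± 0.12). In both, 1 cell gave a large part of the UMIs of replicate 1, 22.9% and 22.6%.

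**Figure D3:**
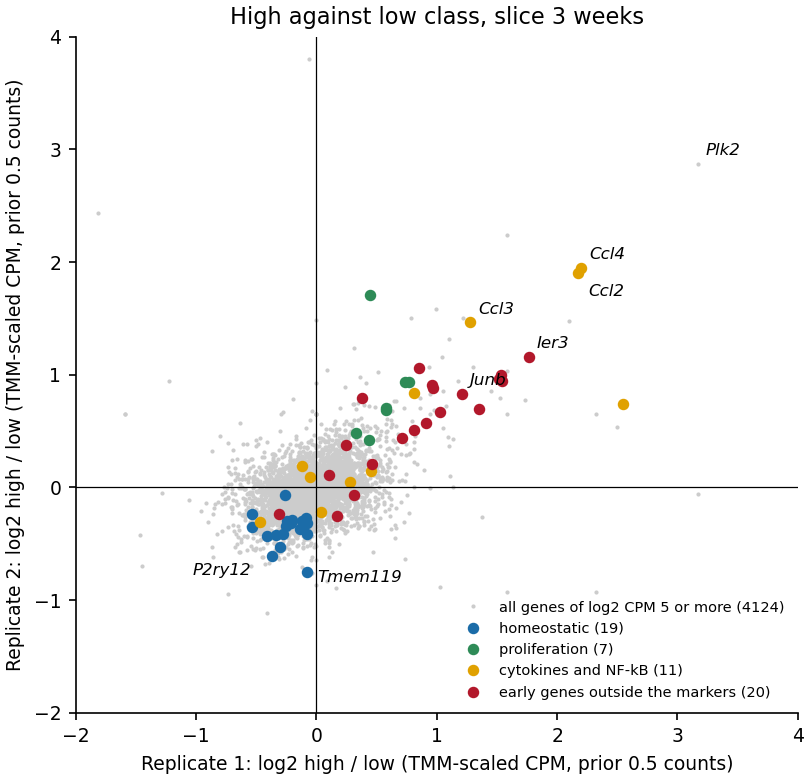
Log2 difference between high and low cells (TMM-scaled CPM, prior of 0.5 counts) in slice 3 weeks replicate 1 (horizontal) against replicate 2 (vertical), with 1 grey point for each of 4124 genes that averaged 5 or more in log2 CPM and members of 4 lists in colour. *Plk2*, *Ccl4*, *Ccl2*, *Ier3* and *Junb* lie in the upper right, all 19 homeostatic genes (blue) in the lower left, and most genes around 0.

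In all, 100 genes were called higher and 5 lower, 102 of these 105 in the same direction in both libraries. The calls were made on these same libraries, so that agreement is not independent support. Of all 11035 genes tested, 2871 were positive in both libraries and 3539 negative in both. For 21 of the 105, more than 20% of the high-class UMIs of a library came from 1 cell. The 5 lower genes were few and low, and *Chst2* and *Dexi* among them were outside the naming rule and were chosen after their values were seen. *Notch2*, a receptor, was at 19.8 against 24.2 CPM and 12.5 against 25.6 (−0.91 ± 0.19, adjusted p = 0.0294 by edgeR), and *Pink1*, a mitochondrial quality control kinase, at 26.4 against 44.3 and 26.5 against 36.0 (−0.62 ± 0.14). *Toporsos*, an antisense RNA, was at 34.4 against 49.0 and 26.5 against 37.1 (−0.59 ± 0.14). *Chst2* was at 14.7 against 36.2 and 13.5 against 27.8, and *Dexi* at 10.3 against 19.5 and 10.2 against 17.0. The count rested much on replicate 2 of slice 3 weeks: without it 15 genes were called higher and 0 lower, against 67 and 5 without replicate 1. Without slice 1 day replicate 1 the counts were 219 and 36, and without its replicate 2 they were 218 and 36. DESeq2 called 43 higher and 0 lower, 41 of them among the 100.

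Cell cycle genes were among those higher in high cells. Of 18 proliferation genes tested, 6 were called higher and 0 lower, beside 0.906% higher and 0.0453% lower over all 11035 genes tested. The median of the 18 was 0.70, and 17 were positive in both libraries, as 2871 of the 11035 were. Their summed level was 1580 CPM in high against 992 in low cells of replicate 1 and 936 against 480 in replicate 2. *Ccnb2*, a mitotic cyclin, was at 48.4 against 14.1 and 37.2 against 11.4 (1.63 ± 0.20, adjusted p = 0.00037 by edgeR), and *Ccnb1* at 38.1 against 19.5 and 26.7 against 7.77 (1.39 ± 0.24). *Stmn1*, a microtubule destabilizer, was at 329 against 180.5 and 189 against 93.2 (0.85 ± 0.12). *Mki67* did not pass, at 35.9 against 30.9 and 56.7 against 30.0 CPM. Cells with at least 3 UMIs of the list, after thinning, made up 26.6% of high against 15.3% of low cells in replicate 1 and 10.7% against 5.59% in replicate 2 (55.0% against 39.8% and 27.9% against 20.2% unthinned). The number called was not stable: 1 with the *Malat1* limit in both classes, 0 without slice 3 weeks replicate 2, and 12 without either slice 1 day library.

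The transcripts that mark microglia were plentiful in high cells, at levels mostly below those of low cells, and none passed both thresholds. *P2ry12*, the ADP receptor of resting microglia, was at 1205 against 1424 CPM in replicate 1 and 766 against 1102 in replicate 2 (−0.49 ± 0.15, adjusted p = 0.15 by edgeR). *Cx3cr1*, the fractalkine receptor, was at 1442 against 1524 and 1039 against 1216 (−0.26 ± 0.08, adjusted p = 0.141). *Tmem119* was at 696 against 672 and 348 against 549 (−0.43 ± 0.14), a sign that in replicate 1 depends on scaling, being positive as raw CPM and negative after the TMM scaling of the fit. Of 19 homeostatic genes, 0 were called by edgeR and 0 by DESeq2, with 13 at an unadjusted p under 0.05 (1426 of all 11035 genes). All 19 had negative log2 differences in both libraries after TMM scaling, as 3539 of the 11035 had, with a median of −0.27. The sign was not particular to this list. Negative in both libraries were also 79 of 84 ribosomal protein genes, 12 of 13 mitochondrial genes and 15 of 20 disease-associated genes. The median of the 19 homeostatic genes was −0.17 with scaling by library size alone, with all 19 still negative in the fit over both libraries. When *Malat1* was asked of neither class, 2 of the 19 were positive. *Fcrls* passed on p only, at 2030 against 2347 and 916 against 1156 CPM (−0.38 ± 0.08, adjusted p = 0.0198). After thinning, *P2ry12* was found in 66.8% of high against 75.9% of low cells and in 50.7% against 66.4% (84.8% against 90.04% and 68.4% against 84.0% unthinned).

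Other lists held few calls or none, where 0.906% of all 11035 genes tested were called higher and 0.0453% lower. Of 20 genes tested of the disease-associated list, *Lgals3* (galectin-3) alone was called, at 692 against 280 and 1555 against 760 CPM (1.05 ± 0.10, adjusted p = 2.13e-05 by edgeR, 20.6% from 1 cell in replicate 1). Of the 20, 16 had negative differences, 15 of them in both libraries (3539 of all 11035 genes), and the median was −0.26. At an unadjusted p under 0.05 by edgeR there were 12 of the 20. *Trem2* was at 2679 against 3392 and 3310 against 3731, and *Apoe* at 21427 against 27733 and 18871.5 against 22496, neither past both thresholds. Of 16 heat shock genes 0 were called (median 0.26, 5 at an unadjusted p under 0.05, which 1426 of all 11035 genes reached). Likewise 0 were called of 14 interferon genes (median 0.31, 3 at that p), of 6 MHC class II genes (−0.03, 1), of 84 ribosomal protein genes (−0.17, 47) and of 13 mitochondrial genes (−0.20, 5), and DESeq2 called 0 in each of these lists. Of 12 genes of the ER and ATF4 stress response 1 was called, *Ddit3* (CHOP), at 111 against 36.9 and 126 against 65.4 (1.01 ± 0.17, adjusted p = 0.00653). Of 6 nuclear RNAs 1 was called, *Neat1*, at 237 against 144 and 219 against 135 (0.60 ± 0.14, adjusted p = 0.0428), while *Malat1*, which had a part in choosing the low cells, differed by −0.07 ± 0.08.

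Neutrophil, monocyte, lymphocyte and erythrocyte markers were at or near 0 in high cells, and those of other cell types were low but present. The 8 neutrophil markers summed to 4.40 CPM in high and 3.35 in low cells of replicate 1 and 0.749 and 1.49 in replicate 2, with 6 of the 8 at 0 in high cells, among them *Cxcr2*, *Retnlg* and *Ngp*. Monocyte markers summed to 0 and 1.34, then 0.499 and 0.598, with *Ly6c2*, *Ear2* and *Chil3*, 3 of the 5, at 0, and lymphocyte markers to 0.733 and 0, then 0 and 0.149, with 5 of 6 at 0. Border macrophage markers summed to 67.4 and 80.5, then 51.4 and 42.1, with *Lyve1* at 0. Neuron markers stood at 8.79 and 3.35, then 2.50 and 1.94, astrocyte markers at 35.9 and 53.0, then 45.7 and 42.7, precursors of oligodendrocytes at 26.4 and 20.8, then 47.0 and 36.0, endothelial markers at 4.40 and 2.68, then 1.75 and 2.99, and erythrocyte markers at 1.47 and 1.34, then 0 and 0. The classes stood further apart in the 4 oligodendrocyte markers, at 133 against 26.8 in replicate 1 and 60.2 against 34.5 in replicate 2, of which 0 were at 0. *Mbp*, myelin basic protein, was called higher (74.7 against 22.8 and 48.7 against 27.04, 1.00 ± 0.18, adjusted p = 0.00904 by edgeR), but 1 cell gave 66.7% of its UMIs in replicate 1. The part of engulfed or free myelin RNA in it was not tested. The 8 microglia markers summed to 6418 against 6739 and 4234 against 5366 CPM.

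The same choice of cells was made in the other groups to see whether the high cells of slice 3 weeks differed from theirs. Marker levels set how many cells a fixed limit takes, and are a description. The limits of the slice 3 weeks libraries were passed by 20.03% and 14.5% of slice 3 weeks cells at the limit of replicate 1 and by 26.7% and 20% at that of replicate 2. Adult libraries passed them with 38.1% and 41.1%, then 46.5% and 42.8%, slice 1 day with 37.8% and 31.6%, then 46.3% and 40.04%, *in vitro* with 11.7% and 8.35%, then 18.1% and 13.9%, and slice 1 week with 10.8% and 13.1%, then 14.9% and 16.4%. A share of few UMIs is coarse in shallow cells, and the libraries' median depth lay between 1858 UMIs (adult replicate 2) and 13966 UMIs (*in vitro* replicate 2). The make-up of the marker UMIs differed as well. In adult high cells *Jun* gave 87.5% and 90.1% of them, whereas in slice 3 weeks it gave 43.7% and 47.0%, and in slice 1 day 34.3% and 25.0%, where *Dusp1* gave 27.3% and 22.4%, against 4.91% and 4.90% in slice 3 weeks.

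**Figure D4:**
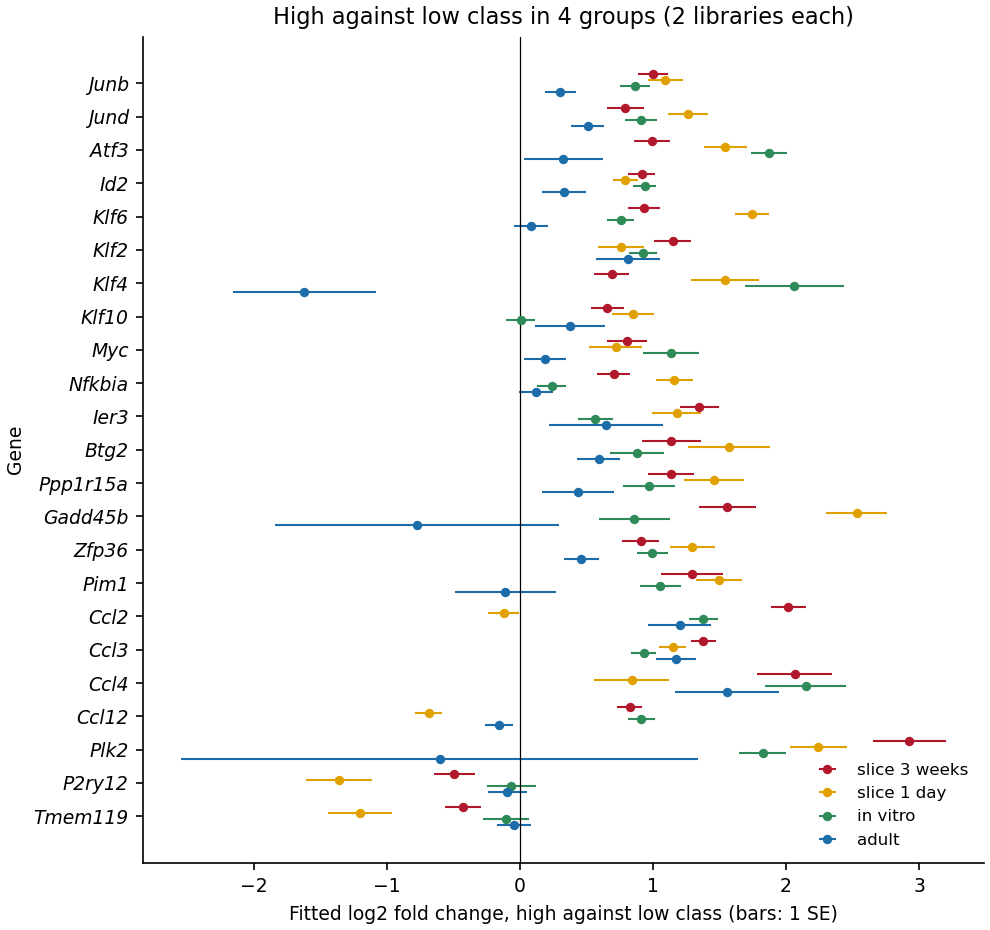
Fitted log2 difference between high and low cells (points) with 1 SE (bars) for 23 genes in slice 3 weeks (red), slice 1 day (yellow), *in vitro* (green) and adult (blue), each group from 2 libraries of its own. *Ccl2* and *Ccl12* lie to the right of 0 in slice 3 weeks and at or left of it in slice 1 day, and several adult values have wide bars.

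Set against the low cells of their own libraries, the median log2 difference of the 45 early genes was 0.79 in slice 3 weeks, 1.09 in slice 1 day, 0.68 *in vitro* and 0.15 in adult. Of the 100 genes called higher in slice 3 weeks, 90 were positive in slice 1 day, 90 *in vitro* and 59 in adult, where 5448, 5000 and 5134 of all 11035 were positive. The same call was passed by 44, 55 and 2 of the 100, where 2.13%, 1.45% and 0.0453% of all genes passed it as higher. A call in 1 group and not in another does not show a difference, so the difference itself was tested. Against *in vitro* 0 genes differed (555 at an unadjusted p under 0.05 by edgeR, and 0 by DESeq2). Against adult 1 gene did, 0.00906% of those tested, and against slice 1 day 5 did, 0.0453%.

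The gene that differed from adult was *Ccl12*, and it was 1 of the 5 that differed from slice 1 day. In slice 3 weeks it was at 1103 against 574 CPM and 1223 against 645, in adult at 307 against 363 and 217 against 214, and in slice 1 day at 654 against 836 and 1002 against 1719. High cells thus held more *Ccl12* than low cells in both slice 3 weeks libraries, and lay level with or under them in adult and slice 1 day. In slice 3 weeks, 1 cell gave 13.1% of its high-class UMIs in replicate 1 and 15.9% in replicate 2. The difference of differences was 0.98 ± 0.14 on the log2 scale from adult (adjusted p = 0.0401 by edgeR) and 1.51 ± 0.14 from slice 1 day (adjusted p = 4.54e-05). The call of the difference from adult was lost under several settings while the difference stayed about as large. It was 0.85 without adult replicate 1 (adjusted p = 1) and 1.11 without adult replicate 2 (0.103). It was 1.01 and 0.98 without slice 3 weeks replicate 1 and 2 (0.104 and 0.774), 0.98 and 0.98 without *in vitro* replicate 1 and 2 (0.0632 and 0.0613), and 0.97 with ties broken by file order (0.053). In the top 10% it was larger, 1.82, and did not pass (0.284). With cells thinned to 1800 UMIs neither difference passed and both were smaller, at 0.45 from adult (adjusted p = 0.128) and 0.35 from slice 1 day (adjusted p = 0.607). *In vitro*, where 0 genes differed, it was at 113 against 60.6 and 112 against 50.6. *Ccl2* differed from slice 1 day by 2.14 ± 0.18 (adjusted p = 4e-05), and there both classes held it, at 267 against 244 and 535 against 586 CPM. *Siglech*, a sialic acid-binding receptor of microglia, differed by 1.70 ± 0.22 (adjusted p = 0.0018): it was at 35.8 against 128 and 16.5 against 58.3 in slice 1 day and at 154 against 148 and 199 against 234 in slice 3 weeks. The other two, *Gm13889* and *Bcl2l11*, were outside the naming rule and were chosen after their values were seen. *Bcl2l11* (Bim), which promotes apoptosis, was higher in the high cells of slice 1 day, at 65.8 against 19.7 and 51.9 against 15.4, and at 16.1 against 18.1 and 19.2 against 21.7 in slice 3 weeks (−1.93 ± 0.29, adjusted p = 0.0108). Thinned, *Ccl2* was at 1.13 and still passed (adjusted p = 0.000147), whereas *Siglech* (1.40, adjusted p = 0.265), *Gm13889* (−1.66, 0.396) and *Bcl2l11* (−1.75, 0.55) kept their direction but did not pass. Without slice 3 weeks replicate 2, *Gm13889* was at −2.22 and *Bcl2l11* at −1.96, and neither passed (0.59 each). DESeq2 gave no adjusted p for *Ccl2*, *Gm13889* and *Bcl2l11*, at differences of 2.16, −2.56 and −1.91. Neutrophil markers took 0.865% and 1.92% of the UMIs of slice 1 day high cells and 1.28% and 0.885% of low cells there, against at most 0.00044% in slice 3 weeks, and their part in these differences was not tested. Leaving out slice 1 day replicate 1 or 2 gave 71 and 127 genes, and leaving out slice 3 weeks replicate 1 or 2 gave 8 and 3.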

How the data were processed

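Single cell RNA-seq of sorted mouse microglia (5 groups, 2 libraries each) was analysed. The authors deposited UMI counts as raw whole numbers, with genes in rows and cells in columns, made with Cell Ranger, listed as version 1.3.0 with genome build mm10 in the submitters' processing notes. The annotation is not given in the sources used here, and neither is whether the tables come before or after the aggregation of libraries. Cells were filtered by the limits given in the report, doublets were not called, and 19059 of 19637 barcodes were kept.

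For the tests, UMI counts were summed over the high and the low cells of each library, giving 16 sums from 8 libraries. The slice 1 week libraries (148 and 61 cells) were left out. The sums were fitted with edgeR 4.0.16 in R 4.3.3 (TMM, filterByExpr with a minimum of 10 counts, glmQLFit and glmQLFTest), with the library as a block, since both classes of a library come from the same sort, and with the class nested in the group. The fit held 11035 genes besides the 5 markers, with a biological coefficient of variation of 6.28% and 4 residual degrees of freedom. The p-values were adjusted over all genes tested (Benjamini-Hochberg), and a call needed an adjusted p under 0.05 and a change over 1.5-fold. CPM use the UMI total of each sum without TMM factors, whereas log2 differences are on the TMM scale. On counts simulated for this comparison, 82% of 2-fold and 99% of 4-fold changes were recovered, over 10917 genes with 200 changed, and 6 unchanged genes were called. The simulation gave all genes the same spread and changed no gene of low counts. It does not show recovery or false calls for genes of larger spread, or recovery for genes of few counts.

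Alternatives were DESeq2 1.42.0, other scalings, filters and classes, thinned cells, and each library left out. A low class with ties broken by file order and a high class of cells with at least 3 marker UMIs were added after the data were seen. Other tools were Python 3.11.15, numpy 2.4.6, pandas 2.3.3 and scipy 1.17.1. Genes named were the markers, members of the lists, the 10 largest rises and falls among calls of 1 direction in both libraries that averaged 5 or more in log2 CPM, and for each difference between groups the 3 largest each way. The members and lists were chosen with earlier results of these data known.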

Additional observations from a re-analysis of the deposited data

Results flagged for a closer look

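Results where the difference between high and low cells itself differed between slice 3 weeks and another group, by the test of that difference in edgeR, were *Ccl12* from adult (0.98 on the log2 scale) and, from slice 1 day, *Ccl2* (2.14), *Ccl12* (1.51), *Siglech* (1.70), *Gm13889* (−2.64) and *Bcl2l11* (−1.93). *Ccl12* from adult did not pass without either adult, either slice 3 weeks or either *in vitro* library, with ties broken by file order, in the top 10% or with cells thinned to 1800 UMIs, at differences of 0.45 (thinned) to 1.82 (top 10%). From slice 1 day, *Ccl12* (0.35), *Siglech* (1.40), *Gm13889* (−1.66) and *Bcl2l11* (−1.75) did not pass with thinned cells, and DESeq2 gave no adjusted p for *Ccl2*, *Gm13889* and *Bcl2l11*. For *Gm13889*, slice 1 day high cells were at 137 and 84.2 CPM against 11.5 and 10.5 in low cells (adjusted p = 0.0002), while in slice 3 weeks the values were 12.5 and 125 against 6.04 and 85.0, so the slice 3 weeks libraries also differed widely in its level.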

How the results depend on the processing

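The library was the block, since the high and low cells of a library are paired. Without this replicate block 4 genes were higher, 0 lower, 1 early gene was called, and 0, 0 and 0 differed from adult, slice 1 day and *in vitro*. Counts below are higher and lower in slice 3 weeks against the reported 100 and 5. They were 227 and 43 with the slice 3 weeks sums alone, 124 and 3 with slice 1 week added, 156 and 1 with scaling by library size alone, 186 and 36 with no filter on low counts, 43 and 0 with DESeq2, 199 and 54 with *Malat1* asked of neither class, 92 and 5 with it asked of both, 37 and 1 with cells thinned to 1800 UMIs, 96 and 3 with the top 10%, 92 and 3 with ties broken by file order and 138 and 26 with at least 3 marker UMIs. Leaving out a library gave 15 to 219 and 0 to 36. Of the 100, 70 were also called with *Malat1* in both classes, 69 in the top 10% and 27 in thinned cells. The 16 early genes became 26 with *Malat1* in neither class, 6 when thinned, and 6 to 23 with a library left out.

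Genes that differed from adult, slice 1 day and *in vitro* (1, 5 and 0 as reported) numbered 4, 9 and 1 with slice 1 week added, 25, 101 and 44 with no filter, 2, 16 and 0 with DESeq2, 28, 641 and 13 with *Malat1* in neither class, 3, 3 and 3 when thinned, 1 (not *Ccl12*), 11 and 1 in the top 10% and 4, 6 and 4 with at least 3 marker UMIs. With *Malat1* in both classes 2 differed from adult, and with ties broken by file order 0 did. Leaving out a library gave 0 to 3, 3 to 127 and 0 to 1. The median log2 difference of a marker in cells chosen by the other 4 (1.86) was 1.96 and 2.32 with *Malat1* in both and neither class, 0.886 thinned, 2.50 in the top 10%, 1.77 with ties in file order and 2.12 with at least 3 marker UMIs. The marker share of high cells was 0.0855% thinned and 0.104% in the top 10%.

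Among 59 named genes and 876 alternative values, 22 changed sign, all of genes not called. *Dusp6* became 0.028 with library size alone, 0.0022 and 0.092 with *Malat1* in both and neither class, 0.065 thinned and −0.25 to 0.17 with a library left out, the last without slice 3 weeks replicate 2. *Socs3* became 0.064 and 0.11 with *Malat1* in both and neither, 0.099 thinned, 0.12 in the top 10% and −0.31 to 0.28 with a library left out. *Batf3* became −0.019 with *Malat1* in neither, −0.14 in the top 10% and −0.23 to 0.67 with a library left out, *Zfp36l2* 0.028 with *Malat1* in neither, and *Zfp36l1* −0.018 with at least 3 marker UMIs. Thinned, *Egr2* became −0.56, *Crem* −0.13 and *Trib1* −0.15. With a library left out, *Sgk1* ran from −0.062 to 0.31, *Srf* from −0.26 to 0.65, *Spry2* from −0.0012 to 4.08 and *Id3* from −7.8e-13 to 1.20. The cause of these shifts was not tested.

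With 2 libraries per group and a median of 4 and 2.5 marker UMIs per high cell, cells near the limit are placed by few molecules, and genes with few counts could not be tested.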

Other observations

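Several called genes outside the lists are given here as values, and were chosen after they were seen. *Hilpda*, described above, was called together with *Ero1l*, an oxidase of the endoplasmic reticulum, at 48.4 against 30.9 CPM in replicate 1 and 254 against 117 in replicate 2 (0.98 ± 0.09, adjusted p = 1.45e-05 by edgeR), *Ankrd37* at 44.7 against 22.1 and 84.4 against 39.0, *Egln3*, a prolyl hydroxylase, at 75.5 against 54.3 and 164 against 91.7, and *Adm*, adrenomedullin, at 16.9 against 9.39 and 62.2 against 37.2. Each of these 4 genes stood at a higher level in replicate 2 than in replicate 1 in both the high and the low cells, a difference between libraries. *Hmox1*, heme oxygenase, was at 270 against 199 and 513 against 204 (0.87 ± 0.16). *Mdm2*, the ligase that turns over p53, was at 56.4 against 32.9 and 54.9 against 30.3, and *Cebpb*, a factor of myeloid cells, at 252 against 152 and 307 against 174. *Osm*, a cytokine of the interleukin 6 family, was at 41.8 against 14.8 and 32.7 against 15.1, with 35.1% of its UMIs in replicate 1 from 1 cell.

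Some calls came from single cells. *Npy* had 96.0% of its high-class UMIs in replicate 2 in 1 cell, and *Ttr*, transthyretin of the choroid plexus, 93.5%, at 214 against 14.3 CPM there and 16.1 against 15.4 in replicate 1. *Cxcl10* had 75.1% in 1 cell in replicate 2, and *Retn* 63.6%.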
